A study of Mus musculus with 6 samples.

Results

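The receptors for extracellular nucleotides and adenosine were examined in 6 RNA-seq libraries of freshly immunopanned oligodendrocyte precursor cells (OPCs), together with Entpd1, a surface enzyme that removes the nucleotides. The genes were those named P2rx4, P2rx7, P2ry1, P2ry6, P2ry13, P2ry14, Adora1, Adora2a, Adora3 and Entpd1 in the deposited table, and all 10 were found among its 18211 genes. The libraries came from C57BL/6 mice at postnatal day 7, 3 from wildtype mice and 3 from NG2-CreERTM:DISC1 exon3 fl/+ mice (DISC1-Δ3). Both genotypes received tamoxifen by gavage on 4 consecutive days, from postnatal day 4 to day 7, so RNA was taken on the last day of induction. Cre in the DISC1-Δ3 mice is driven by the promoter of NG2 (Cspg4), which is active in OPCs and also in pericytes, and 1 of the 2 Disc1 alleles carries the floxed exon. The wildtype mice carried no CreERT, so the genotypes differ in the presence of Cre as well as in the Disc1 allele. The number and sex of the animals behind each library, and whether the wildtype mice carried the floxed allele, were not given in the sources used here.

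ATP released by cells opens P2X channels, of which P2rx4 and P2rx7 encode the types best known from microglia. ATP, ADP, UDP and UDP-sugars act on the P2Y family of G protein-coupled receptors. Entpd1 degrades ATP and ADP to AMP at the cell surface, AMP is converted to adenosine, and adenosine acts on its own family of G protein-coupled receptors, of which Adora1 and Adora3 inhibit and Adora2a stimulates adenylyl cyclase. In the brain P2rx4, P2rx7, P2ry6, P2ry13 and Entpd1 are known above all from microglia, where such genes serve process movement, phagocytosis and inflammasome activation. Adora1 and Adora2a are known chiefly from neurons, Adora1 also from oligodendroglia, and P2ry1 from astrocytes.

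The level of Disc1 and the purity of the cells were examined first. Library totals were 13716619 to 16417219 reads, and 13792 genes with at least 0.5 RPKM (reads per kilobase of transcript, scaled to library size) in at least 3 libraries were compared by the quasi-likelihood test of edgeR, with p-values adjusted over these genes after Benjamini and Hochberg and a threshold of 0.05. Log2 fold changes are those of DISC1-Δ3 over wildtype from this fit, given with their standard errors (SE), and the adjusted p-values beside them are from the same test. DISC1-Δ3 replicate 3 stood further from replicates 1 and 2 (chi-square per degree of freedom of 5.39 and 4.99) than those did from each other (2.59). Disc1 lay between 3.34 and 3.81 RPKM in the wildtype libraries and, lower in all of them, between 2.44 and 2.86 RPKM in the DISC1-Δ3 libraries (log2 fold change -0.45 ± 0.088, SE; edgeR adjusted p = 0.000528). This is the level of the whole gene, and the floxed exon cannot be seen in it, so it does not settle the genotype labels. For brain tissue the paper reports more of the DISC1-Δ3 variant and no change of full-length DISC1, which are other measures. The OPC genes Pdgfra, Cspg4 and Olig2 were present at 17.5 ± 0.503, 15.8 ± 1.38 and 38.0 ± 1.64 RPKM (SD, n = 3) in wildtype libraries. Genes that define microglia were far higher in the same libraries, with Csf1r at 1865 ± 20.8, Cx3cr1 at 475 ± 16 and Tmem119 at 333 ± 2.77 RPKM. The 14 microglial marker genes summed to between 15844 and 16171 RPKM in wildtype libraries and to between 11036 and 11488 in DISC1-Δ3 libraries, against 386 to 398 and 507 to 538 for 8 OPC marker genes. None of the 14 microglial genes was at 0 in any library. Markers of mature oligodendrocytes (2441 to 2473 RPKM in wildtype and 2255 to 2287 in DISC1-Δ3 libraries) and of astrocytes (1815 to 1850 and 1746 to 1760) also summed to more than those of OPCs. Neuronal markers summed to between 350 and 353 RPKM in wildtype and between 418 and 439 in DISC1-Δ3 libraries. The lists differ in length and single genes can lead a sum, as Mbp did at 1807 ± 15.3 RPKM (SD, n = 3) in wildtype. The levels reported here are therefore those of a preparation that holds RNA of microglia, mature oligodendrocytes, astrocytes and neurons beside that of OPCs.

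In DISC1-Δ3 libraries 5 of the 9 tested genes fell and 0 rose: the channels P2rx4 and P2rx7, the UDP receptor P2ry6, the adenosine receptor Adora3, and Entpd1. The fitted changes ran from -40.5% for Adora3 to -25.7% for P2rx4. Without DISC1-Δ3 replicate 3 the same 5 genes were lower and P2ry14 was called higher. The ADP receptor P2ry13, the UDP-sugar receptor P2ry14 and the adenosine receptors Adora1 and Adora2a did not pass the threshold. Over all tested genes 39.9% were called, 20.4% higher and 19.5% lower (51.1% of calls were higher, and 69.2% when library totals alone set the scaling), and the median log2 fold change was 0.01, against -0.43 over the 9 genes. All 14 microglial marker genes fell in the same comparison, with a median log2 fold change of -0.49 and a range from -0.69 to -0.32; fewer microglia and less of these transcripts per microglia cannot be told apart in bulk RNA. The part of that shift in the falls of the 5 genes was not tested, and each gene is set beside it further on. In RPKM the groups did not overlap for 7 of the 9 genes, against 52% of all tested genes, and with TMM scaling the groups of Adora1 overlapped too.

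**Figure D1:**
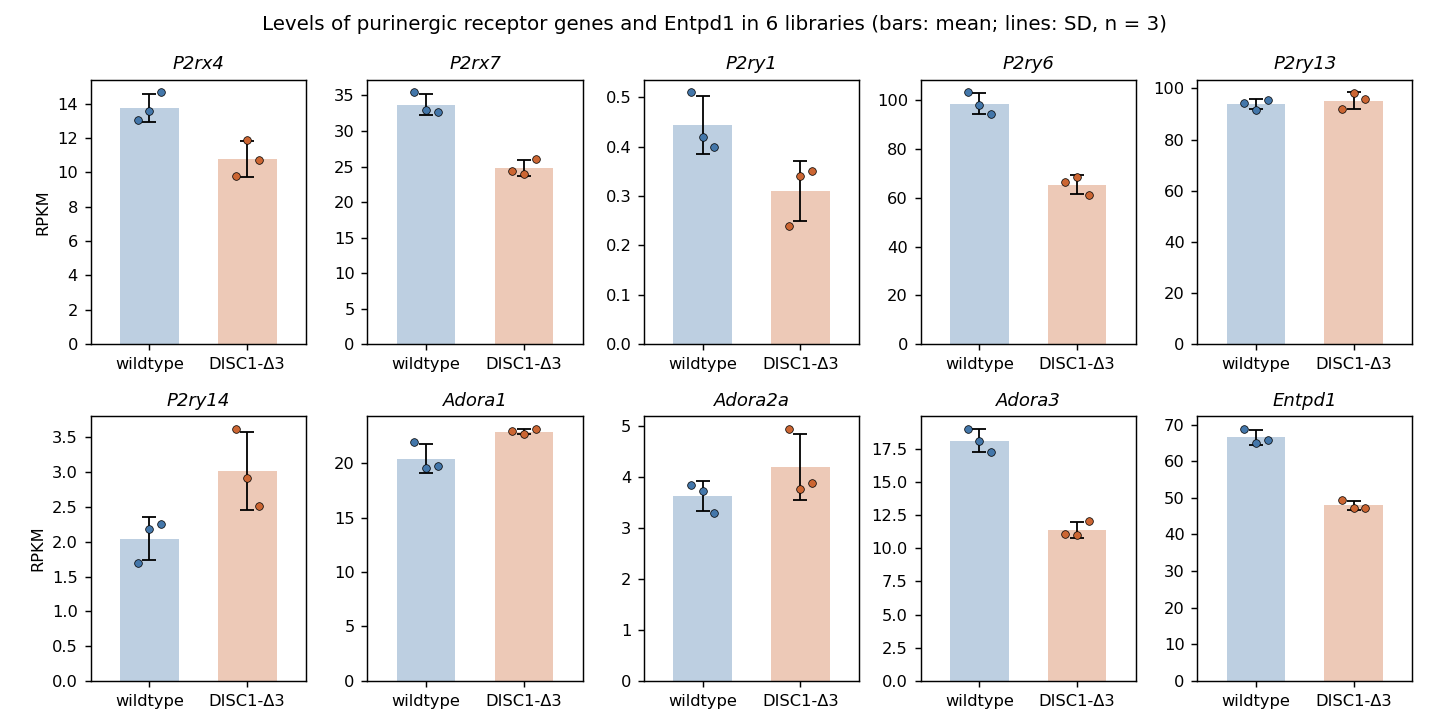
RPKM (vertical axes, each from 0) of the 10 genes in 3 wildtype (blue) and 3 DISC1-Δ3 (orange) libraries, with points for libraries, bars for means and lines for the SD. P2rx4, P2rx7, P2ry6, Adora3 and Entpd1 are lower in every DISC1-Δ3 library than in any wildtype library, while the points of P2ry13 and Adora2a overlap.

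P2rx7 and P2rx4 lie beside each other on chromosome 5 (mm10), at chr5:122643927-122692336 and chr5:122707518-122729739, both on the plus strand, with 15181 bases between them. P2rx7 encodes a channel that opens at high ATP and is known for triggering release of interleukin-1β. It had RPKM values of 35.44, 33.00 and 32.68 in wildtype replicates 1 to 3 and of 24.39, 23.90 and 26.02 in DISC1-Δ3 replicates 1 to 3. All 3 DISC1-Δ3 libraries lay below the lowest wildtype library. The log2 fold change was -0.53 ± 0.049 (SE; edgeR adjusted p = 1.24e-07). P2rx4 encodes a channel that opens at lower ATP and is found largely in lysosomes of microglia. Its values were 13.04, 13.56 and 14.66 RPKM in wildtype against 9.78, 11.88 and 10.73 in DISC1-Δ3 libraries, from 353 to 607 reads. The groups did not overlap, although the spread among the DISC1-Δ3 libraries was the wider one. P2rx4 changed by -0.43 ± 0.084 on the log2 scale (SE; edgeR adjusted p = 0.000506).

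Of the 3 tested P2Y receptors 1 fell, and the fourth was too low to be tested. P2ry6 (chr7:100937630-100975498, minus strand), known as the UDP receptor that drives microglial phagocytosis, had the highest mean of the 10 genes in wildtype, at 103.23, 98.13 and 94.53 RPKM. It stood at 66.59, 68.60 and 61.01 RPKM in DISC1-Δ3 libraries. The lowest wildtype value was thus well above the highest DISC1-Δ3 value, and the log2 fold change was -0.67 ± 0.055 (SE; edgeR adjusted p = 2.27e-08). P2ry13 (chr3:59207892-59210882, minus strand), an ADP receptor like P2ry12, had 94.16, 91.57 and 95.55 RPKM in wildtype against 91.81, 98.20 and 95.68 in DISC1-Δ3 libraries. The groups overlapped. Its log2 fold change was -0.06 with a 95% interval from -0.15 to 0.03 (edgeR adjusted p = 0.314), and it turned to 0.02 when library totals alone set the scaling. With 3070 to 3781 reads in each library, a change of P2ry13 as large as that of P2ry6 lay outside this interval.

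P2ry14 (chr3:59114623-59153492, minus strand), a receptor for UDP-glucose, was low, with 39, 61 and 62 reads in wildtype and 83, 78 and 68 in DISC1-Δ3 libraries. These gave 1.69, 2.18 and 2.26 against 3.62, 2.92 and 2.52 RPKM, and each DISC1-Δ3 value was above each wildtype value. The log2 fold change of 0.43 ± 0.19 (SE; edgeR adjusted p = 0.0804) did not pass the threshold. It passed with library totals alone, in both limma fits to log2 RPKM and without DISC1-Δ3 replicate 3 (0.53, edgeR adjusted p = 0.0273), and its adjusted p ran from 0.0193 to 0.321 over 15 alternatives. P2ry1 (chr3:61002785-61008982, plus strand), an ADP receptor known from platelets and astrocytes, was the lowest gene. It had 0.51, 0.42 and 0.40 RPKM in wildtype against 0.24, 0.34 and 0.35 in DISC1-Δ3 libraries, from 12 to 26 reads, and did not reach the level required for testing. Fitted without that filter, P2ry1 had a log2 fold change of -0.60 ± 0.32 (SE; edgeR adjusted p = 0.156).

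P2ry13 and P2ry14 lie within the Med12l gene on its opposite strand. Neither shares exonic bases with Med12l in the GENCODE annotation, and Med12l itself had 1.31 to 1.97 RPKM. The counting is not stated to use strand, and where exons of opposite strands overlap their reads cannot be told apart. This concerns Adora1, which shares 20.1% of its exonic bases with Mybph (7 to 23 reads), and P2ry1, which shares 23.1% with an antisense RNA that is not in the table. Adora3 shares 20.9% of its exonic bases with Tmigd3 on the same strand, which had at most 5 reads in any library.

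Of the 3 adenosine receptors 1 fell. Adora3 (chr3:105904421-105908928, plus strand), which couples to inhibition of adenylyl cyclase and is known from microglia in the mouse brain, had 18.97, 18.09 and 17.21 RPKM in wildtype against 11.08, 11 and 12.02 in DISC1-Δ3 libraries. The groups lay far apart compared with their spread. Its log2 fold change of -0.75 ± 0.073 (SE; edgeR adjusted p = 2.11e-07) was the lowest of the 9 tested genes, but its 95% interval, from -0.90 to -0.60, overlapped those of the other 4 falling genes. Adora1 (chr1:134199215-134235457, minus strand), one of the receptors through which adenosine is known to act on OPCs, had 21.92, 19.52 and 19.71 RPKM in wildtype against 22.94, 22.66 and 23.11 in DISC1-Δ3 libraries. Every DISC1-Δ3 value in RPKM was above every wildtype value. With TMM scaling the groups overlapped and the log2 fold change was 0.08 (95% interval from -0.04 to 0.19, edgeR adjusted p = 0.271), whereas with library totals alone it was 0.16 and past the threshold (edgeR adjusted p = 0.0213). Adora2a (chr10:75316877-75334792, plus strand), which raises cyclic AMP, had 3.85, 3.74 and 3.29 RPKM in wildtype against 4.95, 3.78 and 3.88 in DISC1-Δ3 libraries, where replicate 1 stood above the other two. Its log2 fold change was 0.16 (95% interval from -0.12 to 0.44, edgeR adjusted p = 0.367), and 0.01 without that replicate.

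Entpd1 (chr19:40612366-40741602, plus strand) had 2872 to 4394 reads in each library. It had 68.78, 64.87 and 65.87 RPKM in wildtype against 49.44, 47.29 and 47.31 in DISC1-Δ3 libraries. The spread within each genotype was small beside the distance between them, and the log2 fold change was -0.55 ± 0.044 (SE; edgeR adjusted p = 1.76e-08).

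**Figure D2:**
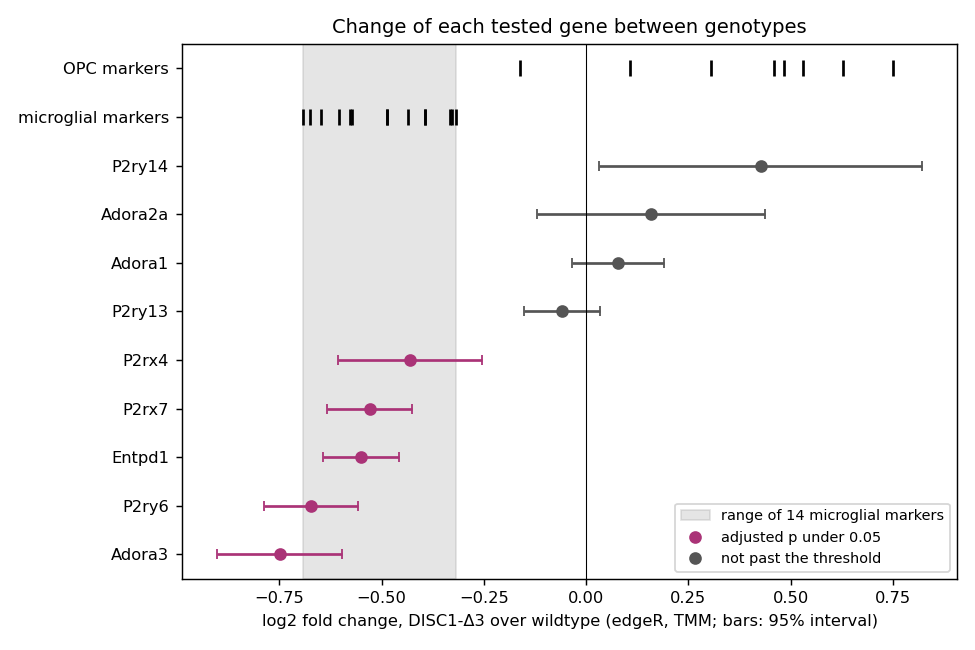
Log2 fold change of DISC1-Δ3 over wildtype (horizontal axis) for the 9 tested genes, with 95% intervals, beside single marks for 14 microglial and 8 OPC marker genes; the grey band spans the microglial markers, from -0.69 to -0.32. The points of P2rx4, P2rx7, P2ry6 and Entpd1 lie within the band, and the intervals of P2ry6 and P2rx4 reach out of it. The point of Adora3 lies below the band with an interval that reaches into it, and P2ry13, Adora1, Adora2a and P2ry14 lie above the band.

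Against the microglial markers the 9 tested genes fell into 3 positions. By their estimates, the log2 fold changes of P2rx4, P2rx7, P2ry6 and Entpd1 were within the range of the 14 markers. The 95% interval of P2ry6, from -0.79 to -0.56, reached below the range, and that of P2rx4, from -0.61 to -0.25, above it. Adora3 was below the range by its estimate, but its 95% interval, from -0.90 to -0.60, reached into it. P2ry13, P2ry14, Adora1 and Adora2a were above the range. So was P2ry12, a microglial receptor outside the marker list, at -0.23. A position above the range is therefore not foreign to microglial genes, and the range depends on the markers listed. The position of each gene was also examined within each library, as reads of a gene per 1000 reads of the 14 markers. This quantity does not depend on scaling between libraries. A two-sided exact permutation test of 3 against 3 libraries cannot give a p below 0.1, so none of these ratios could pass 0.05.

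Entpd1 gave 11.5, 10.8 and 10.9 reads per 1000 marker reads in wildtype replicates 1 to 3 and 11.1, 10.7 and 11.1 in DISC1-Δ3 replicates 1 to 3. P2rx7 gave 5.53 ± 0.268 and 5.58 ± 0.227 (SD, n = 3). With the C1q genes left out of the marker list, the log2 ratio of Entpd1 moved from -0.01 to -0.07 and its groups no longer overlapped (exact permutation p = 0.1). With the full list the genotypes overlapped for both genes (exact permutation p = 0.8 for Entpd1 and 0.9 for P2rx7), and also for P2rx4 (1.42 ± 0.0735 and 1.54 ± 0.156) and P2ry1 (0.0657 ± 0.0108 and 0.0623 ± 0.0145). P2ry13 had 9.19, 8.95 and 9.21 in wildtype and 12.1 to 13.1 in DISC1-Δ3 libraries, a ratio of 1.40 between the means. Adora1 was higher in every DISC1-Δ3 library relative to the markers, with means of 4.23 ± 0.307 and 6.48 ± 0.0889 (SD, n = 3), a ratio of 1.53. For Adora2a and P2ry14 the ratios of the means were 1.62 and 1.97. P2ry6 and Adora3 were lower relative to the markers, at ratios of 0.912 and 0.865. The groups did not overlap for these 6 genes, each with the smallest possible exact permutation p of 0.1 (0.167 adjusted over the 10 genes). The share of all tested genes whose groups separate on this ratio was not determined, so the count of 6 has no background here. Marker reads numbered between 334194 and 404279 in wildtype and between 257683 and 290568 in DISC1-Δ3 libraries, at similar library totals. A gene with an unchanged share of its library is thus higher on this ratio in DISC1-Δ3 libraries. The higher ratios of P2ry13, P2ry14, Adora1 and Adora2a therefore do not by themselves show a change of these genes.

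**Figure D3:**
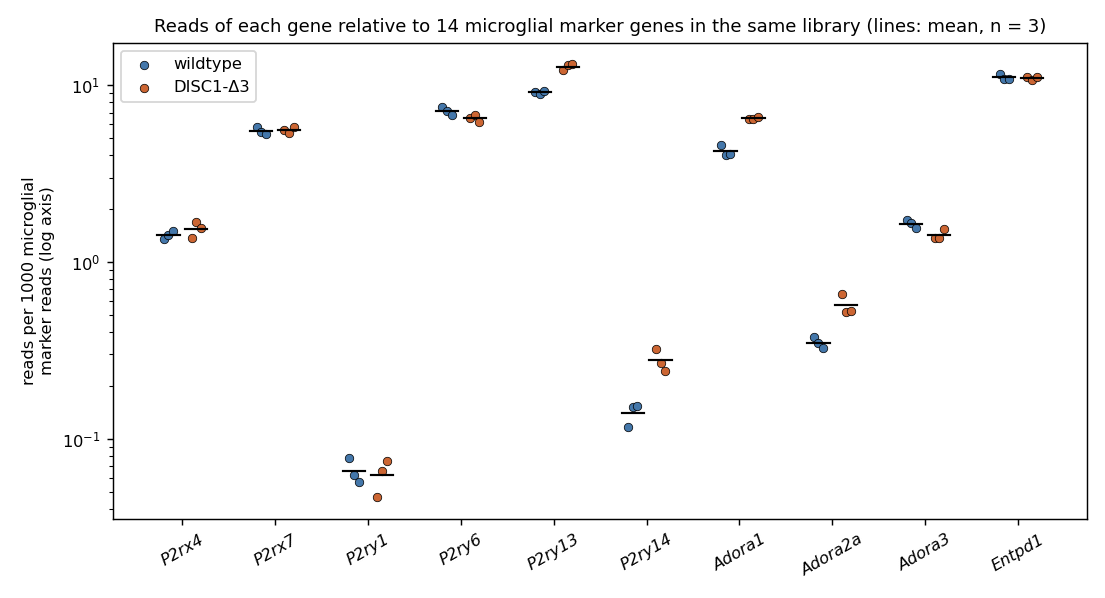
Reads of each gene per 1000 reads of 14 microglial marker genes in the same library (vertical axis, log scale), with points for the 3 wildtype (blue) and 3 DISC1-Δ3 (orange) libraries and lines for their means. Entpd1 and P2rx7 sit at about the same height in both genotypes with this marker list, and P2ry13, P2ry14, Adora1 and Adora2a sit higher in DISC1-Δ3 libraries. The marker reads that form the divisor are themselves a smaller part of the DISC1-Δ3 libraries.

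The order of the levels changed at its top. In wildtype the mean RPKM fell from P2ry6 (98.6 ± 4.37) through P2ry13 (93.8 ± 2.02), Entpd1 (66.5 ± 2.03), P2rx7 (33.7 ± 1.51), Adora1 (20.4 ± 1.33), Adora3 (18.1 ± 0.880), P2rx4 (13.8 ± 0.827), Adora2a (3.63 ± 0.297) and P2ry14 (2.04 ± 0.309) to P2ry1 (0.443 ± 0.0586; SD, n = 3 each). Neighbours in this order did not overlap between libraries, apart from P2ry6 and P2ry13. In DISC1-Δ3 libraries P2ry13 (95.2 ± 3.22) came before P2ry6 (65.4 ± 3.93) without overlap, the order below them was kept, and Adora3 (11.4 ± 0.567) overlapped with P2rx4 (10.8 ± 1.05). P2ry6 stood above 94.2% of tested genes in wildtype and above 90.4% in DISC1-Δ3 libraries. The RPKM of P2ry13 divided by that of P2ry6, a ratio chosen after these values were seen, was 0.912, 0.933 and 1.01 in wildtype against 1.38, 1.43 and 1.57 in DISC1-Δ3 libraries (two-sided exact permutation p = 0.1, the smallest that 3 against 3 libraries allow). P2ry13 held 26.7% of the summed RPKM of the 10 genes in wildtype and 33.3% in DISC1-Δ3 libraries, and P2ry6 held 28.1% and 22.9%.

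Across the 6 libraries, which share the genotype difference and 2 groups of 3, the falling genes followed one another closely. On log2 CPM (counts scaled to library size and TMM factors) Pearson's r was 0.995 between P2rx7 and Entpd1, 0.993 between P2rx7 and Adora3, and 0.987 between P2ry6 and Entpd1. P2rx4 had r of 0.849 with P2rx7 and 0.875 with P2ry13, and Adora1 had negative r with all 5 falling genes, from -0.61 to -0.45. The tested gene outside the 10 that was most like Entpd1 was Sipa1 (r = 0.9999), most like P2rx7 was Mtr (0.999), most like P2ry6 was Lrrc25 (0.999) and most like Adora3 was Kcnd1 (0.999). These come from many: 1046 genes had r above 0.95 with Entpd1. P2ry13 had 15 such genes, led by Pbx2 (0.993), and Adora1 had 23, led by Smtnl2 (0.991). P2rx4, P2ry14 and Adora2a were most like Sumf2 (0.997), Ccdc184 (0.994) and Abcf2 (0.989). With 6 libraries in 2 groups these values describe the libraries and carry no test.

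The sequences upstream of the start sites are shown for genes that moved differently: Adora3 and Entpd1, which fell and hold the core of the motif of PU.1, the transcription factor that defines the macrophage lineage, P2rx4, which fell without it, and P2ry13, which holds it and did not pass the threshold. The motif was searched as GAGGAA and a motif of TCF/LEF factors, the nuclear partners of β-catenin, as CTTTGAT, both on either strand; capitals mark matches of the first. Each stretch is the 250 bases before a RefSeq start site (GRCm38.p6), 5′ to 3′ on the gene's strand, at chr3:105904171-105904420 (plus) for Adora3, chr19:40659520-40659769 (plus) for the second start site of Entpd1, chr5:122707294-122707543 (plus) for P2rx4 and chr3:59210883-59211132 (minus) for P2ry13. None of them overlaps an exon of the GENCODE annotation.
Adora3: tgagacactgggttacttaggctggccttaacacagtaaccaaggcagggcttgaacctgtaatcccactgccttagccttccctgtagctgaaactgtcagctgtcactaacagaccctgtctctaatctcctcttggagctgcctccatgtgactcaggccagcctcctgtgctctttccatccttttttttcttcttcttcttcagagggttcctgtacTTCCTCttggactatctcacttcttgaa
Entpd1: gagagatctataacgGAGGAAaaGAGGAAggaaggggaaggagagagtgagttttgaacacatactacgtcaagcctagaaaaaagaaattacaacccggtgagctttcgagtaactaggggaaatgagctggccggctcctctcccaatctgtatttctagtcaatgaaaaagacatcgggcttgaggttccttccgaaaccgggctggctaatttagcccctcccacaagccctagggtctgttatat
P2rx4: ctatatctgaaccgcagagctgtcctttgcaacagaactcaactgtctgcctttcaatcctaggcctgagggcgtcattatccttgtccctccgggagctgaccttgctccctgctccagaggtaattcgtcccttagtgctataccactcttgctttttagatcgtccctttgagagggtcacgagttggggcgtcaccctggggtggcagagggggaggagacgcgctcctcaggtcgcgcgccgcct
P2ry13: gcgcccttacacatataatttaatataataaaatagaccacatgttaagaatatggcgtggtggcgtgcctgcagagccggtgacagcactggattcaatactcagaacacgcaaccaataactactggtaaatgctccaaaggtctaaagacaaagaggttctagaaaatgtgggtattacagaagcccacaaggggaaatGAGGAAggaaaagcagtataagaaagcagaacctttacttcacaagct

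The match in Adora3 spanned positions -28 to -23 from the start site and that in P2ry13 positions -48 to -43. Entpd1 had 2 matches before its second start site, the nearer ending at -222, and none before its first. Upstream sequences were on hand for 8 of the 10 genes, in 14 windows, some of which overlap. P2ry6 and Adora2a had none and were not searched. The PU.1 core was present in 7 windows of 4 genes (Adora3, Entpd1, P2ry13 and P2ry14), and in 23.3% of 32851 windows of the same length over the genome. Most of the 7 windows are those of P2ry14, and 2 of these hold the same match. The 23.3% counts windows, and the share of genes with a match was not determined. No window of P2rx4, P2rx7, P2ry1 or Adora1 held the PU.1 core. The TCF/LEF motif was present in 0 of the 14 windows and in 3.21% of all windows. The matches are counts of letters and carry no test.

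The rest of the purinergic system was followed in a list of 37 other genes, of which 25 were tested. Of these, 5 rose and 6 fell, where 20.4% and 19.5% of all tested genes did, and the median log2 fold change was -0.08. Among other receptors, P2ry12, the ADP receptor of homeostatic microglia, had 358.73, 362.94 and 358.41 RPKM in wildtype against 320.16, 319.69 and 335.05 in DISC1-Δ3 libraries, a log2 fold change of -0.23 ± 0.039 (SE; edgeR adjusted p = 0.000114). Its 95% interval, from -0.32 to -0.15, lay above those of P2rx7, P2ry6, Adora3 and Entpd1 and overlapped that of P2rx4, from -0.61 to -0.25, and the differences themselves were not tested. Gpr17, a receptor of differentiating OPCs that has been linked to uracil nucleotides, rose from 61.7 ± 1.49 to 104.4 ± 3.71 RPKM (SD, n = 3), a log2 fold change of 0.68 ± 0.044 (SE; edgeR adjusted p = 1.39e-09). P2ry2, a receptor for ATP and UTP, rose by 0.42 on the log2 scale and P2rx1 fell by 0.25, but these calls held in 10 and 6 of 15 alternatives. P2rx2, P2rx3, P2rx5, P2ry4 and P2ry10 were too low to be tested.

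Beyond the receptors, Slc29a3, a nucleoside transporter of lysosomes, fell from 57.0 ± 1.72 to 36.4 ± 1.91 RPKM (SD, n = 3), a log2 fold change of -0.73 ± 0.048 (SE; edgeR adjusted p = 1.43e-09). Slc17a9, the transporter that loads ATP into vesicles, changed by -0.80 ± 0.18 (SE) at a low level, from 2.26 ± 0.146 to 1.37 ± 0.0321 RPKM. Slc29a1, the main adenosine uptake carrier, and Pnp, which cleaves purine nucleosides, changed by -0.21 and -0.20. Alpl, a phosphatase that can degrade ATP down to adenosine, rose by 0.31, Slc29a4 by 0.28 and the channel gene Panx2 by 0.28 on the log2 scale. The calls of Slc29a3, Slc17a9, Slc29a1, Pnp, Alpl, P2ry12 and Gpr17 held in all 15 alternatives, and those of Slc29a4 and Panx2 in 13. Nt5e, which converts AMP to adenosine and acts after Entpd1, had 0.447 ± 0.151 and 0.623 ± 0.0850 RPKM and did not pass the threshold (log2 fold change 0.39, edgeR adjusted p = 0.270). Entpd2, which degrades ATP to ADP, had 54.0 ± 0.599 and 57.4 ± 1.13 RPKM and a log2 fold change of 0.01 with a 95% interval from -0.10 to 0.11.

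**Figure D4:**
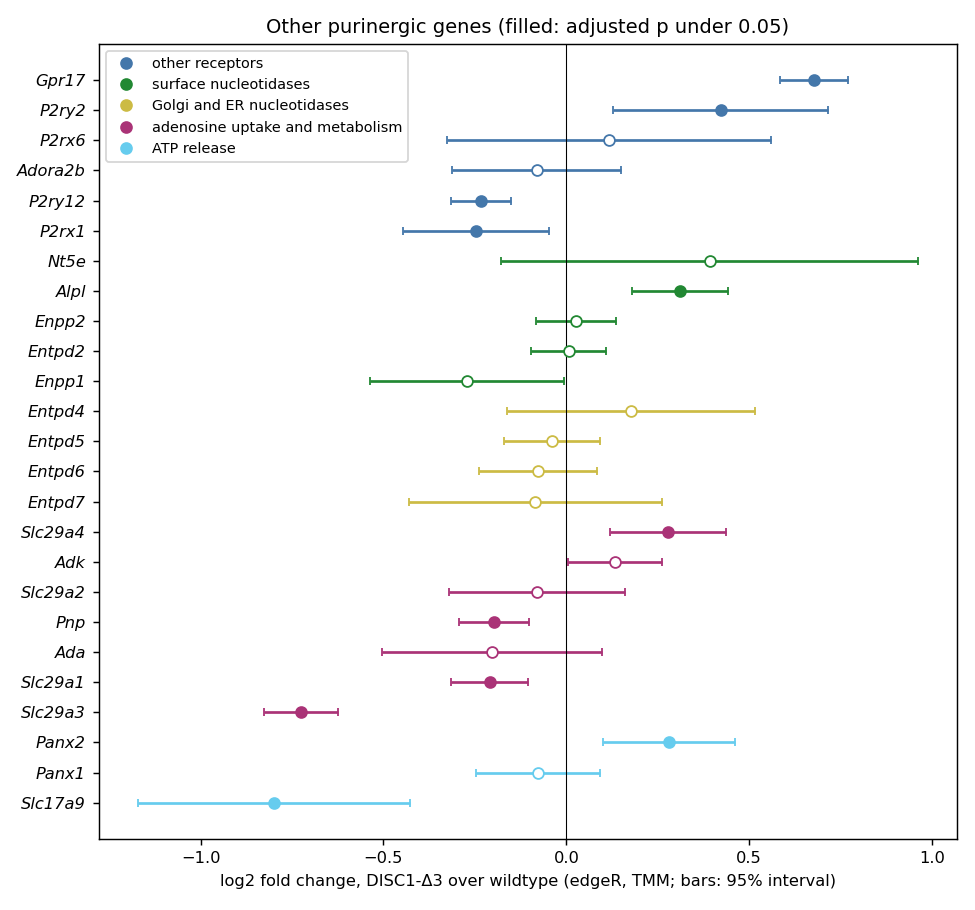
Log2 fold change of DISC1-Δ3 over wildtype (horizontal axis) with 95% intervals for the 25 tested genes of the list, coloured by role; filled points passed an adjusted p of 0.05. Slc17a9 and Slc29a3 show the largest falls and Gpr17 the largest rise, and the 4 Golgi and ER nucleotidases lie around 0.

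Markers of other cell types moved between the genotypes too. Of the tested markers, 6 of 8 rose and 0 fell for OPCs, 7 of 9 rose and 0 fell for neurons, 5 of 5 rose for pericytes, and 3 of 6 rose and 0 fell for endothelium. Mature oligodendrocyte markers fell for 5 of 6, premyelinating markers for 2 of 4, astrocyte markers for 5 of 7 with 1 higher, border macrophage markers for 2 of 6, and markers of other leukocytes for 3 of 4. Over all tested genes 20.4% were called higher and 19.5% lower. The median log2 fold change of the border macrophage markers was 0.14. The markers of neurons, which are known to express Adora1 and Adora2a, summed to between 350 and 353 RPKM in wildtype libraries and to between 418 and 439 in DISC1-Δ3 libraries. Pericyte markers summed to between 120.5 and 127 and to between 167 and 172 RPKM. Border macrophages are close relatives of microglia, and their markers summed to between 71.4 and 74.0 and to between 72.4 and 76.6 RPKM. Their part in the receptor levels was not tested.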

How the data were processed

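RNA from Pdgfrα-immunopanned cells of 3 wildtype and 3 DISC1-Δ3 samples was sequenced as single-end reads from oligo(dT)-purified mRNA. Bowtie2 2.2.5 and mm10 are named in the submitters' processing notes, and DESeq2 in the paper; the counting tool and annotation are not given in the sources used here. The authors deposited expected counts per gene (90.2% of values above 0 are whole numbers) and also deposited RPKM, which divide the counts by transcript length and library total, to 2 decimals and with no other scaling. Their 4 columns of group averages were not used. Expected counts were rounded to whole reads and fitted over all 13792 genes with at least 0.5 RPKM in 3 libraries, with TMM scaling and edgeR 4.0.16 (R 4.3.3), without a replicate term; edgeR, DESeq2 1.42.0 and limma 3.58.1 were tested on simulated data. Totals of 13716619 to 16417219 reads limit precision for P2ry1 and P2ry14; read counts without molecular identifiers cover counting error only. P-values measure the spread between these samples, which are not stated to be separate animals.

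The genes, the pathway list (37 genes), the marker lists of 10 cell types and the motifs were chosen with earlier results of these data known. Named were the 10 genes, check and marker genes, pathway genes past the threshold and the 1 most correlated tested gene for each of the 9; Nt5e, Entpd2, the untested receptors and the overlapping neighbours Med12l, Mybph and Tmigd3 were named after their values were seen. The naming rule held 1 further marker gene that is left out. Gene IDs matched the RefSeq GRCm38.p6 table for 18085 of 18211 genes; coordinates and upstream sequences are from RefSeq, exon overlaps from GENCODE M21. Alternatives were median-of-ratios scaling, library totals, no filter, 1 RPKM, DESeq2, limma on log2(RPKM + 1) and log2(RPKM + 0.1), robust empirical Bayes, a replicate block and each library left out, and for ratios to microglial markers the list without the C1q genes.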

Additional observations from a re-analysis of the deposited data

How the results depend on the processing

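Over 15 alternatives, P2rx4, P2rx7, P2ry6, Adora3 and Entpd1 stayed lower and past the threshold; 5 to 7 of the 10 genes were called, 8 to 12 of the other purinergic genes, 14 microglial markers throughout, and 4342 to 6232 genes in all. With library totals alone, 4126 genes were higher and 1836 lower (69.2% higher, against 51.1%), and P2ry14 and Adora1 were called higher, as in both limma fits to log2 RPKM; the median log2 fold change over all tested genes then was 0.09, not 0.01. P2ry13 turned upward, to 0.0244 on the log2 scale with library totals alone and to 0.0219 and 0.0221 in the limma fits with pseudocounts of 1 and 0.1, without passing the threshold. These fits leave out the TMM factors, which were 0.970 to 0.973 in wildtype and 1.02 to 1.04 in DISC1-Δ3 libraries. Why the factors differ between the genotypes was not tested. Relative to microglial marker reads, the log2 ratio of P2rx7 was 0.0120 and turned to -0.0501 without the C1q genes in the marker list (exact permutation p = 0.5), where that of Entpd1 moved from -0.0105 to -0.0726 (exact permutation p from 0.8 to 0.1). With each library left out, the log2 ratio ran from -0.0164 to 0.0514 for P2rx7, from -0.230 to 0.0961 for P2ry1 and from -0.0251 to 0.0174 for Entpd1, so these have no settled sign; the other 7 genes kept theirs. Same-numbered samples of the genotypes had correlations of 0.0409, 0.0445 and 0.00414 between their deviations. The other pairs had lower ones, from -0.0431 to 0.00318. All were small, and whether same-numbered samples share more than a number cannot be told from them. With the replicate number as a block, 5 of the 10 genes, 11 other purinergic genes, 14 microglial markers and 5429 genes in all were called. For the 10 genes, depth limits P2ry1 (12 to 26 reads) and P2ry14 (39 to 83 reads) most.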
